A study of Mus musculus with 14 samples.

Results

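The expression of the semaphorin, plexin, neuropilin, Eph and ephrin genes was examined in 2 mouse mammary gland epithelial cell lines, with and without TGF-β and after siRNA to the transcription factors Etv4 and Etv5. Gene symbols beginning with Sema3 to Sema7, Plxn, Nrp, Epha, Ephb, Efna or Efnb were taken, which gave 53 of the 23284 genes in the deposited tables. Of these, 28 reached 5 FPKM (a read count scaled to transcript length and library size) in at least 1 library and were followed. The other 25 stayed below this level everywhere. The rule itself used the symbol and the highest level alone.

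Semaphorins are secreted or membrane-bound ligands that bind plexins, and most secreted class 3 semaphorins need a neuropilin as co-receptor. Plexins act as GTPase-activating proteins for small Ras-family GTPases and change the adhesion and the cytoskeleton of the cell that carries them. Ephrins are membrane-bound ligands of the Eph receptor tyrosine kinases. They are attached by a lipid anchor in the ephrin-A class or cross the membrane in the ephrin-B class, and signal in both directions between touching cells. Both systems were first known from the guidance of axons, and in epithelia they act on cell sorting, branching and migration.

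EpH4 is a mouse mammary gland epithelial line, and EpRas was derived from it by transformation with H-Ras. The 8 untransfected libraries held 2 replicates of each of 4 groups: EpH4 cells and EpRas cells, each left untreated or treated with TGF-β3 at 1 ng/ml for 48 h. The 6 siRNA libraries came from EpRas cells that received a control siRNA (siNC), a first pair of siRNAs to Etv4 and Etv5 (siEtv4/5 pair 1) or a second pair (pair 2), each with and without the same TGF-β3 treatment, with 1 library per condition. EpH4 cells grew in 10% and EpRas cells in 4% fetal bovine serum, so that the transformation and the serum cannot be told apart in any comparison of the lines, and each line stands for itself alone. The authors describe the RNA-seq of the untransfected lines as 2 biological replicates. The labels give replicate numbers only and do not name separate cultures. The p-values measure the spread between these libraries, which may be partly technical.

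The deposited tables give FPKM values and no totals, and the relative depth was read from the size of the value that 1 read adds. It ranged 0.609 to 1.36 in the untransfected libraries and 1 to 1.74 in the siRNA libraries, each relative to 1 library of its own table, and a level of 5 FPKM corresponded per gene to 48.4 to 108 reads (medians over genes) and 101 to 176 reads, respectively. Across all genes tested, the log2 values of the 2 replicates correlated at 0.957 to 0.982 in 3 groups and at 0.912 in EpRas cells with TGF-β. All 9 luminal epithelial markers reached 5 FPKM, with a summed level of 2698 to 10327 FPKM in the untransfected libraries, although Krt19 was listed at 0 in all 4 EpH4 libraries, and 4 of 5 basal markers did so, while the basal marker Krt5 was at or below 0.0856 FPKM. None of 5 endothelial and none of 5 neuronal markers reached 5 FPKM. Of 5 leukocyte markers 2 did, Csf1r in EpH4 cells with TGF-β and Cd68 in EpRas cells with TGF-β, and that list summed to 1.81 to 2.24 FPKM in untreated and 6.52 to 8.49 FPKM in treated EpH4 cells and to 4.50 to 8.27 FPKM in EpRas cells. Pecam1, Emcn, Rbfox3, Snap25 and Ptprc were at or below 0.0841 FPKM in the untransfected libraries. The 7 fibroblast markers summed to 22.7 to 26.8 FPKM in untreated EpH4 cells, 222 to 247 FPKM in EpH4 cells with TGF-β and 8.42 to 13.6 FPKM in the 4 EpRas libraries. Col1a1, Col1a2 and Pdgfrb carried that sum, and Lum was at 0 and Dcn at or below 0.175 FPKM in these 8 libraries. The 5 basal markers summed to 362 to 423 FPKM in untreated and 830.3 to 898 FPKM in treated EpH4 cells and to 86.2 to 146 FPKM in EpRas cells, so that this list moved with the line and with TGF-β in EpH4 cells. The luminal sum was 9725 to 10327 FPKM in treated EpH4 and 2698 to 4608 FPKM in treated EpRas cells. The part of these lists in the differences between the lines was not tested. In these bulk samples, fewer cells of a type and less RNA per cell cannot be told apart.

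Both receptor systems were expressed in every library, mostly through a few genes. Plxnb2, a plexin for class 4 semaphorins, was the most abundant member with a mean of 132 FPKM over the untransfected libraries (range 100.6 to 164), followed by the receptor kinase Epha2 with 121 FPKM (104 to 137) and the co-receptor Nrp2 with 76.0 FPKM (60.8 to 96.0). The range of Plxnb2 overlapped with that of Epha2, and Nrp2 lay below both in all 8 libraries. Among the ligands, Efna1 led the ephrin-A genes in all 14 libraries. The leading semaphorin, in contrast, depended on the library: it was Sema3f in untreated EpH4 cells, Sema4d in EpH4 cells with TGF-β and Sema7a in EpRas cells with TGF-β. The 28 genes comprised 10 of 20 semaphorins, 4 of 9 plexins, both neuropilins, 2 of 9 EphA receptors, 4 of 5 EphB receptors, 4 of 5 ephrin-A and 2 of 3 ephrin-B genes.

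**Figure D1:**
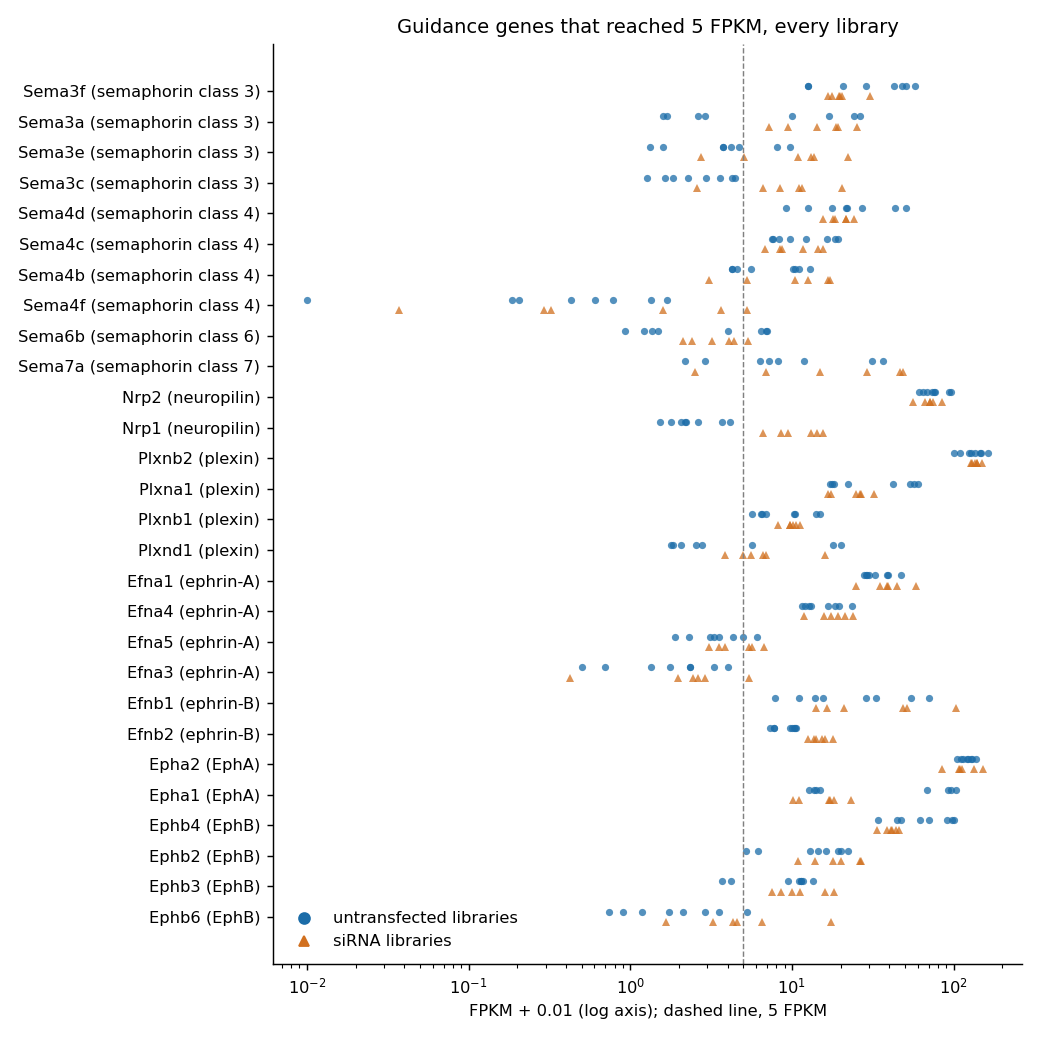
Expression level of the 28 guidance genes that reached 5 FPKM, 1 gene per row ordered by family and mean level. The horizontal axis gives FPKM plus 0.01 on a log scale, each circle is 1 of 8 untransfected libraries and each triangle 1 of 6 siRNA libraries, and the dashed line marks 5 FPKM. Plxnb2 and Epha2 lie at 84.4 FPKM or above in all libraries, and Sema4f reaches the line in a single siRNA library.

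Around the 5 FPKM line, the followed genes with the lowest maxima were Sema4f (5.29 FPKM) and Efna3 (5.44 FPKM). The genes left out with the highest maxima were Epha4 (3.43 FPKM), Sema4a (2.99 FPKM) and Plxna3 (2.88 FPKM). Epha6 was at 0 in all 14 libraries. Plxnc1, which encodes the plexin that binds semaphorin 7A, did not exceed 0.0439 FPKM in any library, whereas Itgb1, the integrin subunit through which semaphorin 7A also acts, was at 109.7 and 80.1 FPKM in untreated and 165 and 160.4 FPKM in treated EpH4 cells, had 99.7 and 137 FPKM in untreated and 263 and 186 FPKM in treated EpRas cells, and was called in no comparison. Of the 28 genes, Efna3, Nrp1, Sema3c and Sema4f passed 5 FPKM only in the siRNA table, so that 24 were tested in the untransfected libraries. Of these, Ephb6, Sema3e and Efna5 reached 5 FPKM only in untreated EpRas cells, Sema3a and Sema6b only in EpRas cells and Plxnd1 only with TGF-β. These 6 entered the tests through groups where they were high, so that the counts of genes called below are a description. Nrp1 ranged 1.52 to 4.15 FPKM there and 6.57 to 15.5 FPKM in the siRNA libraries, and Sema3c 1.27 to 4.44 and 2.57 to 20.2 FPKM. The 2 tables were processed and normalized separately, and these ranges were not compared by a test.

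The genes described in most detail below are Sema7a (chr9:57940112-57962865, plus strand, mm10), Sema3e (chr5:14025276-14256689, plus strand), Efnb1 (chrX:99136130-99148991, plus strand), Plxnd1 (chr6:115954811-115995005, minus strand) and Epha1 (chr6:42358487-42373268, minus strand). Their promoter windows, from 250 bases before to 50 bases after the RefSeq transcription start on GRCm38.p6, are shown as examples of the changes described below: Sema7a and Sema3e with line, TGF-β and siRNA, Efnb1 and Plxnd1 with TGF-β, and Epha1 between the lines. Capitals mark matches on either strand to GGAAGT (ETS core), CACCTG (E-box) or CAGACA (SMAD), and the windows are written 5′ to 3′ on the strand of the gene.
Sema7a (chr9:57939862-57940161): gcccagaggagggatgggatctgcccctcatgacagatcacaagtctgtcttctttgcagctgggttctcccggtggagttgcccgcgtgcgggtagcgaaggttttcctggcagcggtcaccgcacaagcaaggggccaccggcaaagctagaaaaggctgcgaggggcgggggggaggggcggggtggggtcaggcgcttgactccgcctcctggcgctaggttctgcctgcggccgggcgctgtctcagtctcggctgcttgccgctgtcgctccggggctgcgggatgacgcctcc
Sema3e (chr5:14025026-14025325): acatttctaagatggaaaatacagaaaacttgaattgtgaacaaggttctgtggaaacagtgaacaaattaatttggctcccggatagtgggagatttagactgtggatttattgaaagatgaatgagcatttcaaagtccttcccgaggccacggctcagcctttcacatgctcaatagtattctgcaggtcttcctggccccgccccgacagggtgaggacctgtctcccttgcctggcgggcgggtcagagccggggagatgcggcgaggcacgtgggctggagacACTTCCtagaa
Efnb1 (chrX:99135811-99136110): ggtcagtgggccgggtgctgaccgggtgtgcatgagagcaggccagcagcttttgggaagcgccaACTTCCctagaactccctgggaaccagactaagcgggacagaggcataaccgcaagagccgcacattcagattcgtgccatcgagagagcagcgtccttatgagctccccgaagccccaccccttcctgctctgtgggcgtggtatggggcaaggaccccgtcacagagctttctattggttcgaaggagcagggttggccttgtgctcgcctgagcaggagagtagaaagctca
Plxnd1 (chr6:115994956-115995255): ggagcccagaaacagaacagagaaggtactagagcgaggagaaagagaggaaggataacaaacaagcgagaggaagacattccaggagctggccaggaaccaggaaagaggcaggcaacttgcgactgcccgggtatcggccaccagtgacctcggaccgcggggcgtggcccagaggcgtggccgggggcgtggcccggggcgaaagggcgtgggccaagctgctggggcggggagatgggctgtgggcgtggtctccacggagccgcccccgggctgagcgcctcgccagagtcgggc
Epha1 (chr6:42373219-42373518): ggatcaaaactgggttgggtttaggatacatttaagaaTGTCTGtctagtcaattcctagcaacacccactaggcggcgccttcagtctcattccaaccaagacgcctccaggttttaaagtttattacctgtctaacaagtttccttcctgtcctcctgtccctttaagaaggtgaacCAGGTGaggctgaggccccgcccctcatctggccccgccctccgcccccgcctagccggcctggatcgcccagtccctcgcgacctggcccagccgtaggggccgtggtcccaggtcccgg

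RefSeq windows were matched for 26 of the 28 genes, with 34 windows in all. Plxna1 and Sema3f had none. The ETS core GGAAGT, a part of the longer ETS motif, was found in 8 of the 34 windows against 23.8% of all 32851 windows, and the ETS motif CCGGAAGT in 0 of 34 against 3.89%. The E-box letters were in 6 of 34 windows against 20.2%, the SMAD letters in 5 of 34 against 21.0% and the AP-1 letters TGANTCA in 3 of 34 against 7.81%. Among the 5 windows shown, the ETS core started at position 39 after the start of Sema3e and at position -185 of Efnb1, and Epha1 held the SMAD letters at -212 and the E-box letters at -71. The Sema7a and Plxnd1 windows held none of the 5 motifs. These are matches of letters, given as a description.

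The lines were compared to see how Ras transformation and culture changed these genes. Untreated EpRas cells had higher levels of 5 semaphorins and of Ephb2, and lower levels of Sema3f, Epha1, Plxna1 and Plxnb1. In all, 10 of the 24 genes tested passed the threshold (limma on log2 of FPKM plus 1, adjusted p under 0.05 over 9100 genes), 6 higher and 4 lower, where 17.6% of all genes tested passed, 8.45% higher and 9.11% lower. With TGF-β in both lines, 15 of 24 passed, 7 higher and 8 lower, where 21.3% of all genes passed, 8.92% higher and 12.3% lower. All 10 genes of the first comparison were again called in the second, in the same direction. The median log2 fold change of the 24 genes was 0.18 untreated and -0.35 with TGF-β, while that of all genes tested was close to 0 (-0.0031 and -0.0077). The 2 libraries of each line did not overlap for 11 genes that were higher and 4 that were lower in untreated EpRas cells, where 30.6% and 30.4% of all genes, 61.0% together, were so separated, and for 10 and 13 genes with TGF-β, against 30.2% and 32.7%, or 63.0%.

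Sema3a, a secreted repulsive ligand that signals through neuropilin 1, showed the largest increase among the semaphorins. It was at 2.63 and 2.91 FPKM in untreated EpH4 cells and 24.3 and 26.5 FPKM in untreated EpRas cells (log2 fold change 2.81 ± 0.23, adjusted p = 0.000329). With TGF-β the values were 1.67 and 1.58 FPKM in EpH4 and 17.0 and 10.0 FPKM in EpRas cells (log2 fold change 2.42 ± 0.23, adjusted p = 0.000437). Every EpRas library was above every EpH4 library. Sema3e, a class 3 semaphorin that binds plexin D1 without a neuropilin, was at 4.17 and 3.71 FPKM in EpH4 and 9.69 and 8.08 FPKM in EpRas cells (log2 fold change 1.00 ± 0.17, adjusted p = 0.00812), and with TGF-β at 1.59 and 1.31 against 4.68 and 3.72 FPKM (log2 fold change 1.08 ± 0.17, adjusted p = 0.00456). The lines did not overlap under either condition, although EpRas cells with TGF-β overlapped with untreated EpH4 cells. Sema3f, a ligand that prefers neuropilin 2, moved the other way. It was the most abundant semaphorin in untreated EpH4 cells with 51.0 and 57.4 FPKM, and was at 28.8 and 20.8 FPKM in EpRas cells (log2 fold change -1.11 ± 0.19, adjusted p = 0.00761). Under TGF-β it was at 48.2 and 42.9 FPKM in EpH4 and 12.6 and 12.6 FPKM in EpRas cells (log2 fold change -1.77 ± 0.19, adjusted p = 0.000722), so that the 3 class 3 genes tested did not share a direction.

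Among the membrane-bound semaphorins, Sema7a, which is held by a lipid anchor, was at 2.16 and 2.90 FPKM in EpH4 and 8.18 and 11.8 FPKM in EpRas cells (log2 fold change 1.63 ± 0.21, adjusted p = 0.00259). Under TGF-β its level was 7.22 and 6.35 FPKM in EpH4 and 31.4 and 36.4 FPKM in EpRas cells (log2 fold change 2.16 ± 0.21, adjusted p = 0.000462). All 4 EpRas values lay above the EpH4 values of the same treatment, and EpRas cells without TGF-β were above EpH4 cells with it. Sema6b, a transmembrane ligand of A-type plexins, was at 0.915 and 1.34 FPKM in EpH4 and 6.98 and 6.43 FPKM in EpRas cells (log2 fold change 1.86 ± 0.24, adjusted p = 0.00247), and at 1.20 and 1.48 against 3.99 and 6.93 FPKM with TGF-β (log2 fold change 1.43 ± 0.24, adjusted p = 0.00546). Sema4b, a transmembrane class 4 semaphorin, was at 4.23 and 5.57 against 11.1 and 12.8 FPKM (log2 fold change 1.14 ± 0.17, adjusted p = 0.00437), and with TGF-β at 4.54 and 4.28 against 10.4 and 10.1 FPKM (log2 fold change 1.06 ± 0.17, adjusted p = 0.00451). Both genes were separated by line, and within a line the values with and without TGF-β overlapped except for Sema4b in EpRas cells. Sema4d, the ligand of plexin B1, was at 17.7 and 27.1 FPKM in EpH4 and 21.7 and 12.6 FPKM in EpRas cells, which overlapped (log2 fold change -0.39 ± 0.42, adjusted p = 0.579). Under TGF-β its level was 51.0 and 43.4 FPKM in EpH4 and 9.12 and 21.9 FPKM in EpRas cells (log2 fold change -1.66 ± 0.42, adjusted p = 0.0302); the treated lines did not overlap, although the 2 EpRas replicates lay far apart, and the call ended with no filter (adjusted p = 0.0591) and with the 2 treated groups alone in the fit (0.0669). Sema4c passed in neither comparison (log2 fold change -0.11 ± 0.19, adjusted p = 0.732 untreated).

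**Figure D2:**
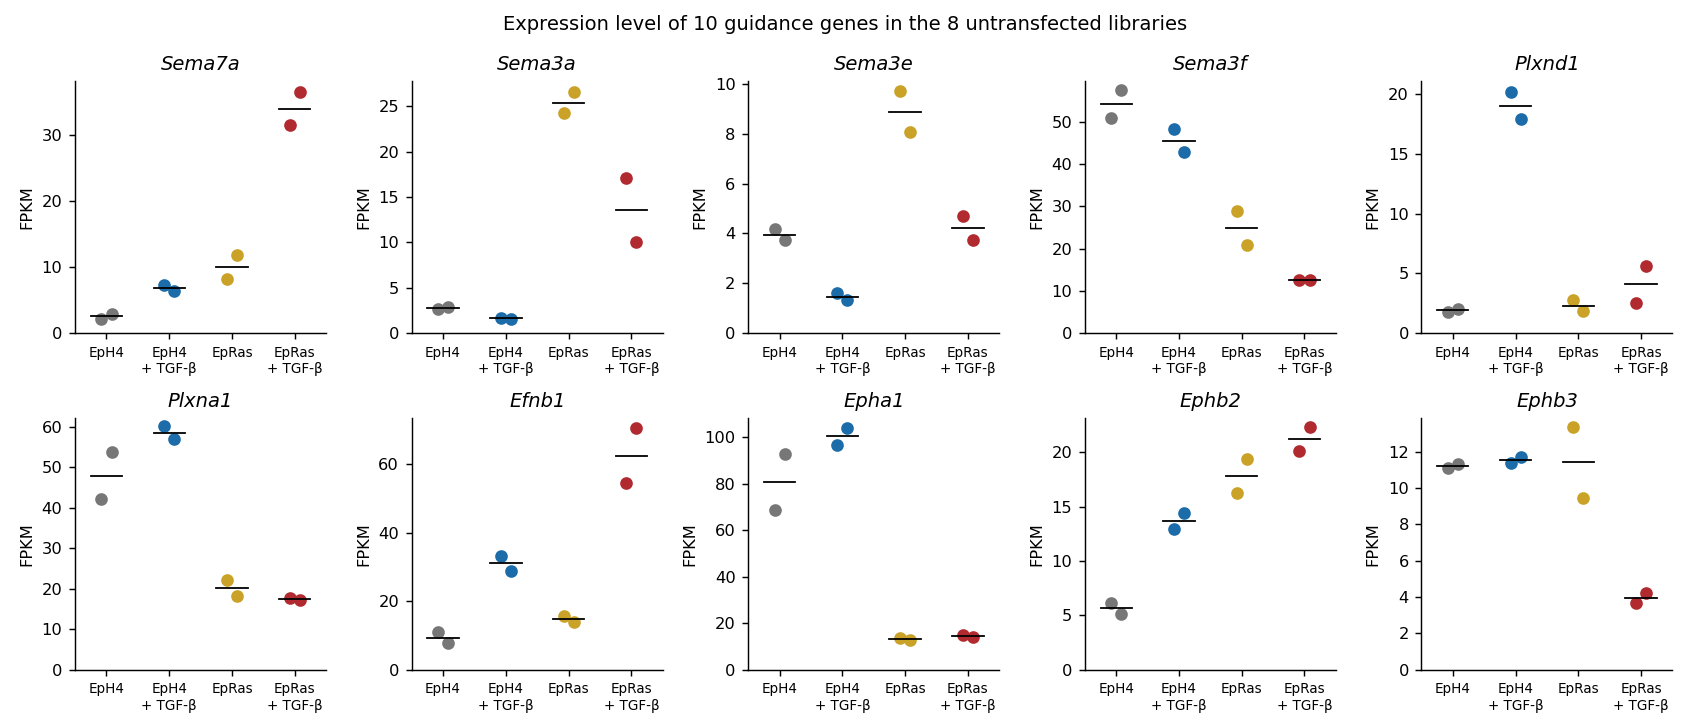
Expression level of 10 guidance genes in the untransfected libraries, 1 panel per gene with FPKM on a linear axis that starts at 0. Points are the 2 libraries of each group and the line is their mean: Sema3a and Epha1 separate the lines, Efnb1 and Sema7a are highest in EpRas cells with TGF-β, and Plxnd1 is high only in the EpH4 libraries with TGF-β.

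The plexins that passed were lower in EpRas cells. Plxna1, a signalling receptor for class 3 semaphorins together with neuropilins and for class 6 semaphorins, was at 42.1 and 53.7 FPKM in EpH4 and 22.1 and 18.1 FPKM in EpRas cells (log2 fold change -1.21 ± 0.18, adjusted p = 0.0044). Under TGF-β its level was 60.1 and 57.1 against 17.8 and 17.2 FPKM (log2 fold change -1.69 ± 0.18, adjusted p = 0.000671), and no EpRas library reached the lowest EpH4 library. Plxnb1, the receptor of semaphorin 4D, was at 10.4 and 10.2 against 6.92 and 6.44 FPKM untreated (log2 fold change -0.56 ± 0.14, adjusted p = 0.0365) and at 14.9 and 14.0 against 5.67 and 6.47 FPKM with TGF-β (log2 fold change -1.13 ± 0.14, adjusted p = 0.00165). These groups did not overlap either. Plxnd1, the receptor of semaphorin 3E, did not separate the untreated lines, with 1.78 and 2.04 FPKM in EpH4 and 2.75 and 1.81 FPKM in EpRas cells (log2 fold change 0.16 ± 0.30, adjusted p = 0.755). With TGF-β it was lower in EpRas cells, with 20.2 and 17.9 FPKM in EpH4 and 2.54 and 5.63 FPKM in EpRas cells (log2 fold change -2.05 ± 0.30, adjusted p = 0.00316). The abundant Plxnb2 and Nrp2 passed in neither comparison, with log2 differences of 0.04 ± 0.23 and 0.27 ± 0.14 untreated and -0.32 ± 0.23 and -0.42 ± 0.14 with TGF-β.

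Of the Eph receptors, Epha1 had the largest difference between the lines. It was at 68.7 and 92.7 FPKM in EpH4 cells and 13.7 and 12.7 FPKM in EpRas cells (log2 fold change -2.51 ± 0.18, adjusted p = 0.000159), and with TGF-β at 96.9 and 104 against 14.9 and 14.0 FPKM (log2 fold change -2.71 ± 0.18, adjusted p = 7.65e-05). The lowest EpH4 library was at 68.7 FPKM and the highest EpRas library at 14.9 FPKM. Epha2, its more abundant relative in these cells, stayed at 104 to 137 FPKM and passed in no comparison. Ephb2 was at 6.18 and 5.16 FPKM in EpH4 and 16.2 and 19.3 FPKM in EpRas cells (log2 fold change 1.49 ± 0.17, adjusted p = 0.00129), and with TGF-β at 12.9 and 14.4 against 20.1 and 22.3 FPKM (log2 fold change 0.60 ± 0.17, adjusted p = 0.0424). No other EphB gene was called as higher in EpRas cells. Ephb3 did not pass when untreated, with 11.1 and 11.3 FPKM in EpH4 and 13.4 and 9.45 FPKM in EpRas cells, which overlapped (log2 fold change 0.01 ± 0.18, adjusted p = 0.991), and was lower in EpRas cells with TGF-β, with 11.4 and 11.7 against 3.67 and 4.21 FPKM (log2 fold change -1.35 ± 0.18, adjusted p = 0.00241). Ephb4, a receptor of ephrin-B2, was at 62.1 and 98.3 FPKM in EpH4 and 70.7 and 47.1 FPKM in EpRas cells untreated, which overlapped (log2 fold change -0.43 ± 0.28, adjusted p = 0.343), and at 100.1 and 91.4 against 34.2 and 44.5 FPKM with TGF-β (log2 fold change -1.27 ± 0.28, adjusted p = 0.0183).

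Among the ephrins, Efnb1 alone passed, and only with TGF-β (log2 fold change 0.98 ± 0.21, adjusted p = 0.0159). Its values were 10.97 and 7.81 FPKM in EpH4 and 15.5 and 13.9 FPKM in EpRas cells, and with TGF-β they were 33.2 and 28.8 FPKM in EpH4 and 54.5 and 70.4 FPKM in EpRas cells. The lines did not overlap under either condition, and the untreated difference did not pass (log2 fold change 0.61 ± 0.21, adjusted p = 0.0909). Efna1, Efna4, Efna5 and Efnb2 passed in none of the comparisons of untransfected cells, with levels of 27.9 to 46.9, 11.5 to 23.6, 1.88 to 6.03 and 7.25 to 10.7 FPKM.

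Some of these calls rested on single libraries. In the untreated comparison, leaving out 1 of 8 libraries ended the call of Plxnb1 in 6 cases (all but the 2 EpRas libraries with TGF-β; adjusted p 0.0857 to 0.154), of Sema3e without EpH4 replicate 2 (0.0564) or EpRas replicate 1 (0.0598) and of Sema3f without EpH4 replicate 2 (0.055). With TGF-β it ended the call of Ephb2 in all 8 cases (0.055 to 0.24), of Efnb1, Ephb4 and Sema4d without EpH4 TGF-β replicate 1 (0.0716, 0.118 and 0.163) or replicate 2 (0.115, 0.0837 and 0.111), of Ephb4 and Sema4d without EpRas TGF-β replicate 1 (0.0715 and 0.0949), of Efnb1 without EpRas TGF-β replicate 2 (0.0535) and of Sema6b without EpH4 TGF-β replicate 1 (0.0547). Fits of the 4 libraries of a comparison alone also ended the calls of Plxnb1 untreated (adjusted p = 0.0677) and of Ephb2 with TGF-β (0.078), beside that of Sema4d given above. The replicate block ended those of Plxnb1 (0.0822) and Ephb2 (0.0788).

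**Figure D3:**
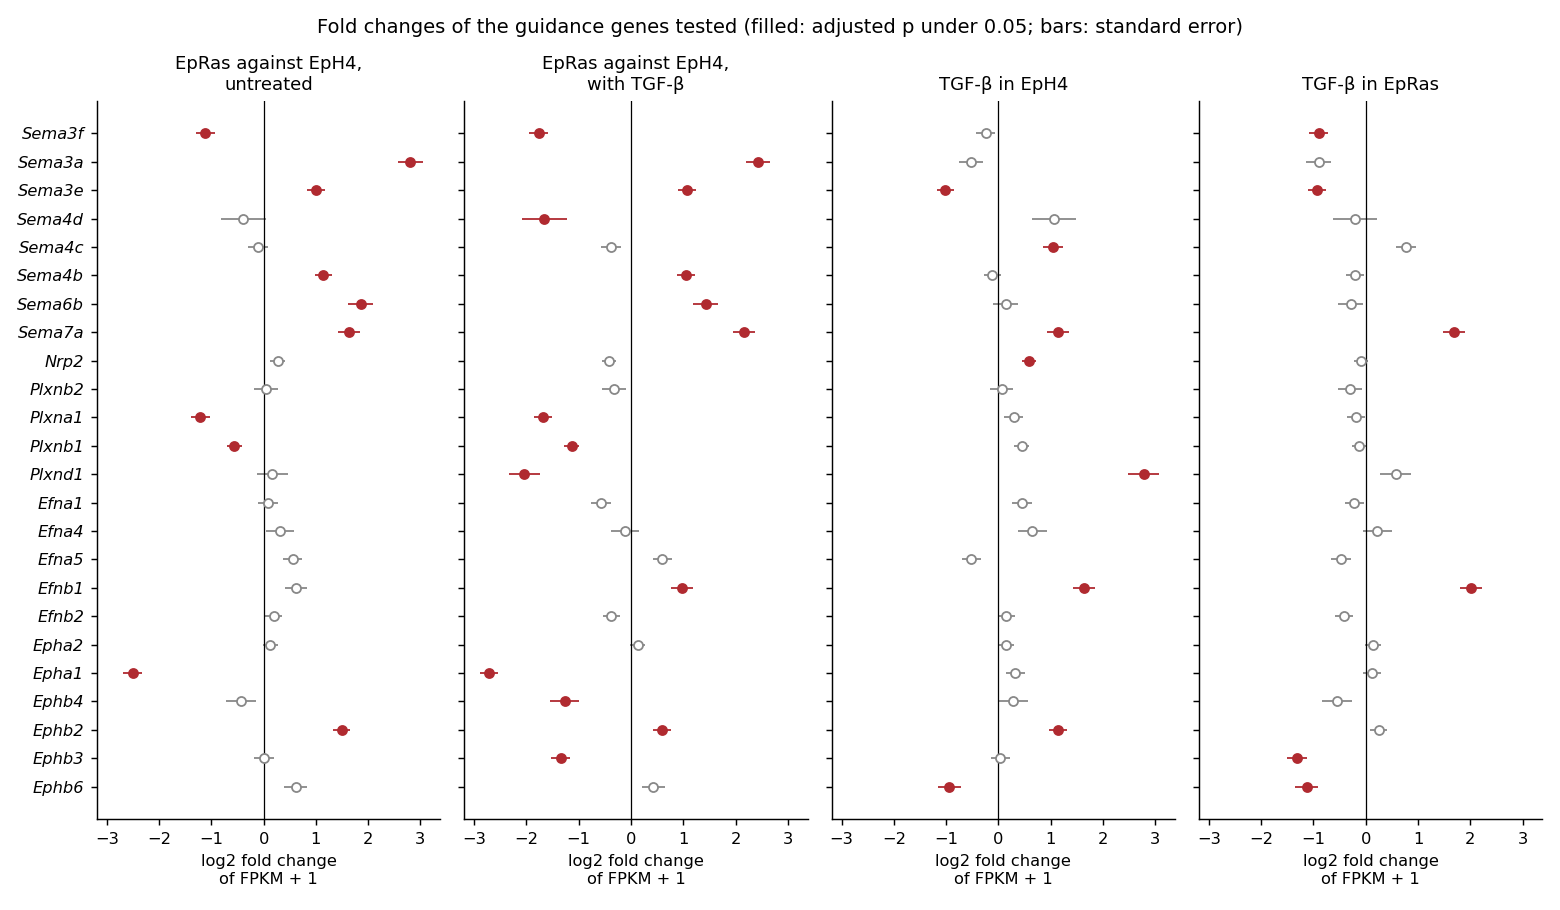
Log2 fold change of FPKM plus 1 for the 24 guidance genes tested, in 4 comparisons of the untransfected libraries with 2 libraries per group. Points are limma estimates, bars are standard errors and filled points have an adjusted p under 0.05; Efnb1 and Sema7a are filled and positive in both TGF-β panels, and Epha1 is filled and negative in both line panels.

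TGF-β was added to see which genes change when these cells are stimulated. In EpH4 cells, TGF-β raised Plxnd1, Efnb1, Sema7a, Ephb2, Sema4c and Nrp2 and lowered Sema3e and Ephb6. These were 8 of 24 genes, 6 higher and 2 lower, where 9.40% of all genes tested passed, 6.48% higher and 2.91% lower. In EpRas cells, 6 of 24 passed: Efnb1 and Sema7a rose, and Ephb3, Ephb6, Sema3e and Sema3f fell, where 3.82% of all genes passed, 1.90% higher and 1.92% lower. Efnb1, Sema7a, Sema3e and Ephb6 passed in both lines, each in the same direction. The median log2 fold change of the 24 genes was 0.29 in EpH4 and -0.20 in EpRas cells, against -0.0164 and -0.0185 over all genes tested. Treated and untreated libraries did not overlap for 14 higher and 5 lower genes in EpH4 cells, against 30.2% and 30.4% of all genes (60.6% together), and for 5 and 12 in EpRas cells, against 18.5% and 20.9% (39.4%). The comparisons of line and of TGF-β share libraries.

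Efnb1, whose protein is a transmembrane ligand of EphB receptors, showed the larger of the 2 rises called in both lines. From the values given above, its mean rose 3.30-fold in EpH4 cells (log2 fold change 1.64 ± 0.21, adjusted p = 0.00377) and 4.25-fold in EpRas cells (log2 fold change 2.00 ± 0.21, adjusted p = 0.00302). Every treated library was above every untreated library of either line. Sema7a rose 2.68-fold in EpH4 (log2 fold change 1.15 ± 0.21, adjusted p = 0.0171) and 3.39-fold in EpRas cells (log2 fold change 1.68 ± 0.21, adjusted p = 0.00591), again without overlap within a line. Efnb2, the other ephrin-B gene followed, did not pass in either line (0.15 ± 0.17 and -0.42 ± 0.17 on the log2 scale). The summed level of the ephrin-B genes was 18.5 to 19.3 FPKM in untreated and 39.1 to 44.0 FPKM in treated EpH4 cells, and 25.0 to 26.6 and 63.0 to 78.9 FPKM in EpRas cells.

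Plxnd1 had the largest increase in EpH4 cells, where its level rose from 1.78 and 2.04 to 20.2 and 17.9 FPKM (log2 fold change 2.78 ± 0.30, adjusted p = 0.00148). In EpRas cells it was at 2.75 and 1.81 FPKM untreated and 2.54 and 5.63 FPKM with TGF-β, and the groups overlapped (log2 fold change 0.58 ± 0.30, adjusted p = 0.417). Its ligand gene Sema3e fell in both lines, to 0.368 times the untreated mean in EpH4 (log2 fold change -1.01 ± 0.17, adjusted p = 0.0125) and 0.472 times in EpRas cells (log2 fold change -0.93 ± 0.17, adjusted p = 0.0304). The treated and untreated EpH4 libraries did not overlap for either gene, and in EpRas cells Sema3e alone was separated. Sema3f fell in EpRas cells (log2 fold change -0.90 ± 0.19, adjusted p = 0.0473) and was 0.841 times the untreated mean in EpH4 cells (log2 fold change -0.25 ± 0.19, adjusted p = 0.487). Sema3a had lower values with TGF-β in each line without passing (log2 fold change -0.52 ± 0.23, adjusted p = 0.229 in EpH4 and log2 fold change -0.90 ± 0.23, adjusted p = 0.0969 in EpRas cells).

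Sema4c, a transmembrane class 4 semaphorin, was at 7.65 and 9.76 FPKM in untreated and 19.1 and 18.5 FPKM in treated EpH4 cells (log2 fold change 1.04 ± 0.19, adjusted p = 0.0173). In EpRas cells it was at 8.30 and 7.55 FPKM untreated and 12.2 and 16.4 FPKM treated, which did not overlap and did not pass (log2 fold change 0.77 ± 0.19, adjusted p = 0.0902). Nrp2 rose in EpH4 cells from 60.8 and 64.7 to 96.0 and 93.7 FPKM (log2 fold change 0.59 ± 0.14, adjusted p = 0.0404) and was at 76.2 and 75.1 FPKM in untreated and 68.0 and 73.6 FPKM in treated EpRas cells (log2 fold change -0.10 ± 0.14, adjusted p = 0.811). Ephb2 rose in EpH4 cells, from the values above (log2 fold change 1.14 ± 0.17, adjusted p = 0.00663), to a level below that of untreated EpRas cells. Ephb3 fell in EpRas cells from 13.4 and 9.45 to 3.67 and 4.21 FPKM (log2 fold change -1.31 ± 0.18, adjusted p = 0.00981), while its EpH4 libraries all lay between 11.1 and 11.7 FPKM. Ephb6, an EphB receptor without kinase activity, was at or below 5.27 FPKM in the untransfected libraries. It entered the test through 1 library, EpRas replicate 1, and with no filter its call ended in both lines (adjusted p = 0.0563 and 0.0607), as did that of Sema3f in EpRas cells (0.0606). It was at 2.87 and 2.12 FPKM in untreated and 0.730 and 0.891 FPKM in treated EpH4 cells (log2 fold change -0.94 ± 0.22, adjusted p = 0.0397), and at 5.27 and 3.504 FPKM in untreated and 1.17 and 1.72 FPKM in treated EpRas cells (log2 fold change -1.13 ± 0.22, adjusted p = 0.0369).

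The difference between the TGF-β effects of the lines was tested directly. None of the 24 genes passed (limma), where 0.802% of all genes did (0.176% higher and 0.626% lower), and 8 of the 24 had an unadjusted p under 0.05, against 10.9% of all genes. Plxnd1 and Ephb3 came nearest (Plxnd1: difference -2.21, 95% interval -3.19 to -1.22, adjusted p = 0.0785; Ephb3: difference -1.35, 95% interval -1.97 to -0.74, adjusted p = 0.083, on the log2 scale, EpRas effect minus EpH4 effect). These intervals are not adjusted for the number of genes tested. Both lie below 0, as do those of Efna1, Efnb2, Ephb2, Nrp2, Plxnb1 and Sema3f. Plxnd1 passed in 2 of 16 alternatives. One of these had 5 FPKM added before the logarithm (difference -1.496, adjusted p = 0.0492, limma). The other left out EpRas TGF-β replicate 2, in which Plxnd1 was at 5.63 FPKM (difference -2.66). The intervals of Efnb1 (-0.33 to 1.07), Sema7a (-0.16 to 1.23) and Sema3e (-0.49 to 0.65) include 0.

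Several TGF-β calls also rested on single libraries. Without EpH4 replicate 1 or 2, 3 of the 24 genes passed in EpH4 cells, and without EpH4 TGF-β replicate 1 or 2, 1 and 2 passed, while over all genes the calls went from 855 to between 242 and 365. Plxnd1 passed in every one of these fits and Efnb1 in all but that without EpH4 TGF-β replicate 1 (0.0504), whereas the adjusted p of the other 6 reached 0.15 (Sema7a), 0.0769 (Ephb2), 0.144 (Sema4c), 0.259 (Nrp2), 0.118 (Sema3e) and 0.25 (Ephb6). In EpRas cells the count was 2 to 5 when 1 library was left out, while over all genes the calls went from 348 to between 135 and 407. Efnb1 and Sema7a passed in each case, and Ephb3 in all but that without EpRas replicate 1. The call ended in 7 of 8 cases for Sema3e and for Ephb6, and in all 8 for Sema3f. With only the 4 EpRas libraries in the fit, 0 of 24 genes passed and 45 of all genes did. The replicate block in the limma fit ended the calls of Nrp2 (adjusted p = 0.097) and Ephb6 (0.0784) in EpH4 cells. In EpRas cells it ended those of Ephb6 (0.0809) and Sema3f (0.0942). The fibroblast and basal marker sums given above moved with TGF-β in EpH4 cells beside these calls, as did the luminal sum (5797 to 7185 FPKM untreated, 9725 to 10327 FPKM treated) and the leukocyte sum (1.81 to 2.24 and 6.52 to 8.49 FPKM), and in EpRas cells the basal (126 to 146 FPKM untreated, 86.2 to 87.8 FPKM treated), fibroblast (12.3 to 13.6 and 8.42 to 11.1 FPKM) and leukocyte sums (4.496 to 5.34 and 5.64 to 8.27 FPKM) were also separated by treatment. The part of these lists in the calls was not tested.

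The siRNA libraries were made to ask what Etv4 and Etv5 contribute in EpRas cells. Etv4 was at 57.4 FPKM in the siNC library and at 11.6 and 27.9 FPKM after pairs 1 and 2 untreated, and at 64.3, 12.6 and 18.9 FPKM with TGF-β. Etv5 was at 8.85, 1.61 and 1.26 FPKM untreated and 5.34, 1.24 and 1.20 FPKM with TGF-β. Both targets were thus lower with both pairs, and Etv4 was reduced less by pair 2. There was 1 library per condition, so these are values of single libraries with no replicate check. A gene was counted when both pairs differed from siNC at least 2-fold in the same direction and 1 of the 3 libraries reached 5 FPKM. Both pairs were set against the same siNC library. The fibroblast markers summed to 5.504 FPKM with siNC and 25.7 and 16.6 FPKM with pairs 1 and 2 untreated, and to 11.7, 43.9 and 22.4 FPKM with TGF-β, and the basal markers to 162, 257 and 413 FPKM untreated and 189, 234 and 279 FPKM with TGF-β. Both lists were thus higher with either pair. The leukocyte markers were lower with either pair, at 6.48, 3.28 and 5.002 FPKM untreated and 11.5, 5.10 and 7.09 FPKM with TGF-β, and so were the endothelial markers, at 0.585, 0.0484 and 0.0347 FPKM untreated and 2.01, 0.0993 and 0.254 FPKM with TGF-β. The part of these lists in the values below was not tested.

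Sema7a was the only gene past this rule without TGF-β, of 26 that could be counted, where 5.40% of all genes passed it, 3.01% lower and 2.39% higher. It was at 28.9 FPKM (660 reads) in the siNC library, 2.51 FPKM (78 reads) after pair 1 and 6.89 FPKM (200 reads) after pair 2. The ratios to siNC were 0.0870 (95% counting interval 0.0679 to 0.110) and 0.238 (95% counting interval 0.202 to 0.279), where intervals cover counting error only. Under TGF-β its level was 48.9 FPKM in the siNC library and 14.8 and 46.5 FPKM after pairs 1 and 2, so that the ratio to siNC was 0.303 (95% counting interval 0.273 to 0.335) for pair 1 and 0.951 (95% counting interval 0.886 to 1.02) for pair 2. Within each siRNA condition the library with TGF-β was above that without it. Untransfected EpRas cells had a mean Sema7a level of 9.98 FPKM untreated and 33.9 FPKM with TGF-β, below siNC under both conditions. The ratios are thus to siNC alone. The untransfected and siRNA libraries were processed separately, and this difference was not tested.

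With TGF-β, Sema3e was the only gene past the rule, of 25 that could be counted, where 4.76% of all genes passed it, 2.71% lower and 2.05% higher. It was at 13.6 FPKM (1175 reads) in the siNC library, 2.71 FPKM (185 reads) after pair 1 and 5.07 FPKM (310 reads) after pair 2, with ratios of 0.199 (95% counting interval 0.169 to 0.232) and 0.371 (95% counting interval 0.327 to 0.421). Without TGF-β it was at 22.3, 10.9 and 13.2 FPKM, with ratios of 0.486 and 0.589. The Cuffdiff interval of siNC overlapped with those of both pairs untreated and with that of pair 2 under TGF-β. Both knockdown libraries were below siNC under either condition. Untransfected EpRas cells, processed separately, had a mean Sema3e level of 8.89 FPKM untreated and 4.20 FPKM with TGF-β, also below siNC. Both pairs untreated and pair 2 with TGF-β were above these means, which was not tested. Sema3c, a class 3 ligand that binds neuropilins, was likewise below siNC in all 4 knockdown libraries, with 20.2, 11.5 and 8.39 FPKM untreated and 10.98, 6.59 and 2.57 FPKM with TGF-β, but only pair 2 was past 2-fold.

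**Figure D4:**
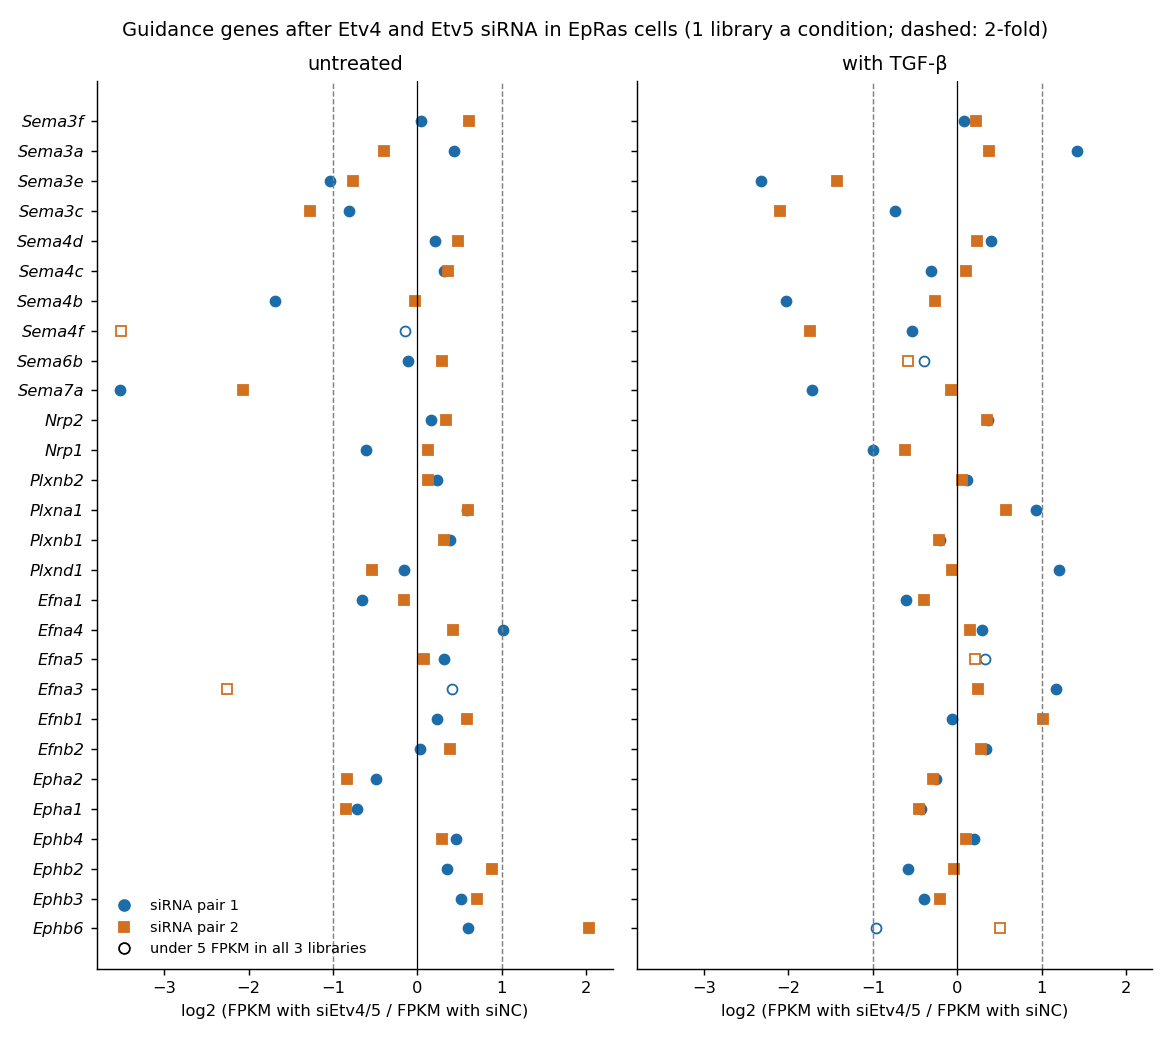
Log2 ratio of FPKM with siEtv4/5 to FPKM with siNC for the 28 guidance genes in EpRas cells, untreated on the left and with TGF-β on the right, with circles for siRNA pair 1 and squares for pair 2. Each point compares 2 single libraries, dashed lines mark 2-fold and open symbols mark genes under 5 FPKM in all 3 libraries; Sema7a is past the left line with both pairs when untreated and Sema3e with TGF-β.

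The single libraries of the 2 pairs differed from each other for several genes. Sema4b was at 17.1 FPKM in the siNC library and at 5.29 and 16.8 FPKM after pairs 1 and 2, and with TGF-β at 12.5, 3.08 and 10.5 FPKM. Pair 1 was therefore more than 2-fold below siNC under both conditions and pair 2 was not. The ratios for pair 1 were 0.309 (95% counting interval 0.261 to 0.366) untreated and 0.245 (95% counting interval 0.200 to 0.299) with TGF-β. Ephb6 was at 4.28, 6.49 and 17.5 FPKM untreated, with pair 2 highest. Efnb1 was at 51.1 FPKM in the siNC library and at 48.9 and 103 FPKM after pairs 1 and 2 under TGF-β. Past 2-fold with 1 pair only were also Efna4 (higher) and Sema3e (lower) with pair 1 and Sema3c (lower) with pair 2 untreated, and Efna3, Plxnd1 and Sema3a (higher) and Sema7a (lower) with pair 1 and Sema4f (lower) with pair 2 under TGF-β. Of these, Efna3 and Sema4f could be counted only through 1 library each, pair 1 and siNC with TGF-β, which are the libraries where they were highest. For all of these but Sema7a, the Cuffdiff interval of the pair past 2-fold overlapped with that of siNC, as it did for Efnb1. The intervals of Sema4b with pair 1 and of Ephb6 with pair 2 untreated did not overlap with siNC. Over all genes, pair 1 took 4.00% of all genes past 2-fold upward and 5.68% downward untreated and 4.25% and 6.20% with TGF-β, and pair 2 took 4.88% and 5.81% untreated and 3.76% and 4.58% with TGF-β, genes past with both pairs included. Without those genes the shares were 1.61% and 2.68% untreated and 2.2% and 3.48% with TGF-β for pair 1, and 2.48% and 2.80% untreated and 1.71% and 1.87% with TGF-β for pair 2. Epha1 was 0.61 and 0.555 times siNC untreated and 0.741 and 0.732 times with TGF-β, and Plxna1 1.497 and 1.52 times untreated and 1.91 and 1.49 times with TGF-β, with both pairs on the same side under both conditions.

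An additive fit over the 6 siRNA libraries, in which libraries of other conditions stand in for replicates (3 residual degrees of freedom per gene), called 0 of the 28 genes for the knockdown (limma), where 2.12% of all genes passed (0.770% higher and 1.35% lower), and 6 of the 28 had an unadjusted p under 0.05, against 22.7% of all genes. Sema7a (log2 fold change -1.69 ± 0.60, adjusted p = 0.173) and Sema3e (log2 fold change -1.24 ± 0.28, adjusted p = 0.0783) did not pass. With siNC and pair 1 alone, Sema7a (-2.37, adjusted p = 0.035) and Sema4b (-1.63, 0.0237) passed, and with siNC and pair 2 alone none did. For TGF-β the same fit called 2 of 28, Efnb1 and Sema4f, both higher, where 2.50% of all genes passed (1.61% higher and 0.891% lower). Efnb1 was at 14.0, 16.5 and 21.0 FPKM untreated and rose with TGF-β under each siRNA, to the values given above (log2 fold change 1.85 ± 0.29, adjusted p = 0.0331). Sema4f, a transmembrane class 4 semaphorin, was at 0.313, 0.282 and 0.0274 FPKM untreated and 5.29, 3.64 and 1.58 FPKM with TGF-β (log2 fold change 1.81 ± 0.28, adjusted p = 0.0318). Sema4f entered this test through the siNC library with TGF-β alone, where it is highest, so that its call is a description. The untreated and treated libraries of both genes did not overlap. Neither passed with siNC and pair 2 alone (adjusted p = 0.0859 and 0.136) or with no filter (0.102 and 0.0986). Sema7a was higher with TGF-β under each siRNA without passing (log2 fold change 1.83 ± 0.56, adjusted p = 0.172), and Sema3e lower under each (log2 fold change -1.19 ± 0.26, adjusted p = 0.0862).

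The genes that act with these receptors were taken as 4 lists, whose counts stand against the shares of all genes called: 17.6% and 21.3% between the lines untreated and with TGF-β, 9.40% and 3.82% for TGF-β in EpH4 and EpRas cells, and 2.12% and 2.50% for knockdown and TGF-β in the siRNA libraries. Of 10 semaphorin co-receptors and alternative receptors, 6 were tested in the untransfected libraries: Cd72, a receptor of class 4 semaphorins, was higher (log2 fold change 0.94 ± 0.22, adjusted p = 0.0259) and Met, a kinase that associates with B-type plexins, lower (log2 fold change -0.90 ± 0.16, adjusted p = 0.0097) in untreated EpRas cells. With TGF-β 1 was higher (L1cam) and 3 lower (Erbb2, Met and Ptk7), and TGF-β called none in either line. Cd72 reached 5 FPKM in EpRas cells alone and L1cam only in EpRas cells with TGF-β, so that each entered the tests through the group where it was high. Of 23 plexin effectors, 16 were tested. Mical2, of the MICAL oxidases that act below plexins, rose with TGF-β in EpH4 (log2 fold change 2.07 ± 0.22, adjusted p = 0.00148), in EpRas (log2 fold change 1.67 ± 0.22, adjusted p = 0.00753) and in the siRNA libraries (log2 fold change 1.92 ± 0.27, adjusted p = 0.0254). Rras, a small GTPase that plexins inactivate, rose in EpH4 cells (log2 fold change 0.77 ± 0.16, adjusted p = 0.0286). The knockdown called Farp1 among the plexin effectors, as higher (log2 fold change 1.04 ± 0.17, adjusted p = 0.0425).

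Of 24 Eph and ephrin effectors, 18 were tested, and 3 were lower in untreated EpRas cells: the exchange factors Arhgef16 (log2 fold change -1.95 ± 0.18, adjusted p = 0.000576) and Tiam1 and the kinase Fyn. With TGF-β 1 was higher (Rasa1) and 3 lower (Arhgef16, Tiam1 and Arhgef19). These 16.7% and 22.2% of the list were near the shares of all genes. Arhgef16 and Tiam1 reached 5 FPKM in EpH4 cells alone and entered the tests through that line. TGF-β called none in EpH4 cells, and in EpRas cells lowered Arhgef16 and raised Fyn (log2 fold change 0.79 ± 0.16, adjusted p = 0.0399). Of 21 genes of other guidance families, 7 were tested. Slit2, Rgmb and Unc5b were higher and Ntn1 and Rgma lower in untreated EpRas cells, and with TGF-β Slit2 was higher and Ntn1 and Rgma lower. Slit2 reached 5 FPKM in EpRas and Rgma in EpH4 cells alone, so that these calls, like those of the other genes that passed through 1 line, are given as a description. TGF-β raised the netrin receptor Unc5b in EpH4 (log2 fold change 1.97 ± 0.16, adjusted p = 0.000481), EpRas (log2 fold change 1.01 ± 0.16, adjusted p = 0.0157) and the siRNA libraries (log2 fold change 1.65 ± 0.15, adjusted p = 0.00941), and lowered its ligand Ntn1 in EpRas (log2 fold change -1.43 ± 0.16, adjusted p = 0.00428) and in the siRNA libraries (log2 fold change -1.26 ± 0.17, adjusted p = 0.0248).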

How the data were processed

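Polyadenylated RNA of 14 libraries was sequenced on the Ion Proton after directional library preparation. Per the labels and the submitters' processing notes, the authors aligned reads to mm10 with TopHat2 2.0.11 and Bowtie2 2.2.2.2 and made FPKM values with Cufflinks 2.2.0 (Cuffdiff), separately for the untransfected and the siRNA libraries. The deposited FPKM values were used as given, and tests were made within a table only. From the steps in these values whole reads were recovered for 7321 of 10544 and 6826 of 10444 genes with a single transcription start (within 0.1 reads), which gave the relative depths. FPKM are not counts, so the values were tested as log2(FPKM + 1) with limma 3.58.1 in R 4.3.3, with 1 mean per group over 8 libraries, Benjamini-Hochberg adjustment over 9100 genes with 5 FPKM or more in any library, and two-sided adjusted p under 0.05 as the threshold. The siRNA fit held knockdown and TGF-β terms over 9094 genes. Fold changes on this scale understate the change of low genes, and errors are standard errors of the fit. Intervals on siRNA ratios are exact binomial (Clopper-Pearson, 95%) on recovered reads, cover counting error only and are given where reads were recovered. Genes called in an untransfected comparison or past the 2-fold siRNA rule with both pairs were described library by library. The members and lists were chosen with earlier results of these data known. Coordinates are from GENCODE, promoters from RefSeq. Alternatives changed the added value, the filter, the scaling, the groups in the fit, the variance trend, the replicate block and the libraries. The differences of the plexin effectors between the lines are not reported here.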

Additional observations from a re-analysis of the deposited data

Results flagged for a closer look

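Plxna4, which encodes an A-type plexin, appeared with TGF-β in EpH4 cells, among genes that the 5 FPKM line left out of all comparisons. It was at 1.33 and 1.64 FPKM in treated EpH4 cells, a mean of 1.49 FPKM, and at 0.0137 and 0 FPKM in untreated EpH4 cells. All 4 untransfected EpRas libraries were at 0.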

How the results depend on the processing

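Of 41 called values in all comparisons, 18 stayed past the threshold under every alternative in which they were tested and 0 changed direction. A filter on a mean of 5 FPKM or more left out Sema6b and Sema3e. With it, 8 and 13 genes were called for the lines untreated and with TGF-β, and 6 and 4 for TGF-β in EpH4 and EpRas cells. Over all genes these counts were 1259, 1548, 702 and 282. Leaving out 1 library moved the count of genes called to between 7 and 11 for EpRas against EpH4 cells untreated, 10 and 14 with TGF-β, 1 and 10 for TGF-β in EpH4 cells, 2 and 5 for TGF-β in EpRas cells and 0 and 1 for the difference between the TGF-β effects. Over all genes the calls moved in the same fits to between 736 and 2104, 816 and 2370, 242 and 1153, 135 and 407, and 11 and 133, from 1598, 1935, 855, 348 and 73. A lone library left in a group was assumed to vary like the other groups. A fit of the 4 EpRas libraries alone called 0 of the 24 genes for TGF-β, and 45 over all genes. With 5 FPKM added, 1 was called for the difference between the TGF-β effects, and 102 over all genes. For the knockdown, siNC and pair 1 alone gave 2, and 233 over all genes against 193. For TGF-β in the siRNA libraries, 5 FPKM added, a mean of 5 FPKM or more and a variance trend gave 1 each, and no filter and siNC with pair 2 alone gave 0 each; over all genes these gave 203, 190, 229, 72 and 17, respectively, against 2.50% of 9094 genes in the fit reported. Both pairs past 1.5-fold gave 5 genes untreated and 3 with TGF-β, where 16.7% and 14.3% of all genes passed, and the mean of both pairs past 2-fold gave 3 and 3, where 8.84% and 8.06% passed. The cause of these changes was not tested.

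Replicate numbers did not pair the libraries: the deviations of same-numbered libraries correlated at -0.347 to 0.0785. With the replicate block the counts were 9 and 14 for the lines untreated and with TGF-β, 6 and 4 for TGF-β in EpH4 and EpRas cells and 0 for the difference, and over all genes 1121, 1520, 547, 222 and 31. No block could be fitted to the siRNA libraries, which have 1 library per condition. Depth was 48.4 to 176 reads at 5 FPKM, which limits the precision of genes near that level.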
